A study of Mus musculus with 96 samples.

Results

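The genes described here are 10 regulators of cell polarity and asymmetric cell division: Numb, Numbl, Pard3, Pard6b, Prkci, Gpsm2, Numa1, Llgl1, Llgl2 and Scrib. They were taken by symbol from the count table of the whole series, in which they are 10 of 55487 listed genes, and all 10 passed a filter on low values (at least 10 counts in 10% of the cells) that 14463 genes passed. Their transcripts were followed over 96 single cells and within the 48 pairs of daughter cells that these cells form. All cells were horizontal basal cells (HBCs), the reserve stem cells of the olfactory epithelium (OE), from wild type adult mice of 6 to 8 weeks whose OE was taken 2 days after methimazole, a drug that injures this epithelium. The HBCs were cultured as primary cells on extracellular matrix that was switched from Tropoelastin to Fibronectin, and both daughters of a division were picked by mouth pipette soon after it. There was 1 group, with no treatment or genotype to compare, and neither the mouse nor the culture of a cell is given. The cells were therefore treated as 1 sample, no p-value was computed, and every share or correlation describes these cells only.

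Asymmetric division depends on an axis set up at the cell cortex before mitosis. The Par complex, made of PAR3, PAR6 and atypical protein kinase C (aPKC), marks one cortical domain, and the Scribble module, made of Scribble, Discs large and Lethal giant larvae, marks the opposing one. LGN, encoded by Gpsm2, and NuMA, encoded by Numa1, then pull on astral microtubules through dynein to turn the spindle along that axis, so that fate determinants such as the Notch antagonist Numb may pass mainly to one daughter. All of these work as proteins at a place in the cell. The assay read polyadenylated RNA of the whole daughter cell, so the values below say how much transcript each daughter held and nothing of where the protein lay.

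Gene counts per cell ran from 29454150 to 44849003 with a median of 36152760. The spike-in RNAs of the External RNA Controls Consortium (ERCC), of which the same amount went into every lysate, took 1.06% to 5.75% of all counts. Size factors from these spike-ins ran from 0.378 to 1.89, and all normalized counts below are counts divided by them. The HBC markers Trp63, Krt5 and Krt14 were counted in all 96 cells. Of the 32 markers listed for 7 other cell types, 3 (Sox9, Adcy3 and Cd68) were counted in at least 48 cells, and Kit, Ermn, Cyp1a2, Cnga2, Foxi1, Dcn, Cd3e and Cdh5 were at 0 in all of them.

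The 10 genes differed widely in level. In TPM, a unit that scales reads by transcript length and library, Numa1, Gpsm2 and Pard3 stood highest, with medians over cells of 34.1, 32.1 and 31.8 TPM. Llgl1 with 20.2 TPM, Llgl2 with 19.4 TPM, Prkci with 16.5 TPM, Numb with 13.2 TPM and Scrib with 10.8 TPM followed. Pard6b had a median of 0.654 TPM and Numbl of 0. Neighbours in this order had overlapping interquartile ranges over cells in every case except the last step, from Pard6b to Numbl, so the order within the first 8 genes is not resolved beyond the spread between cells. Pard3, Prkci and Numa1 were read in all 96 cells, and Prkci alone had 10 or more counts in every one.

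**Figure D1:**
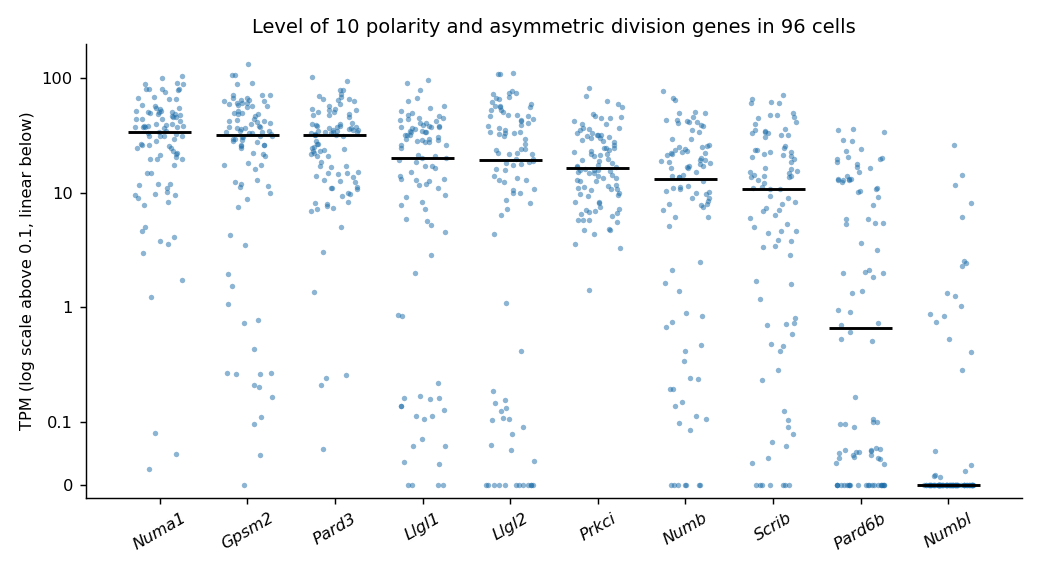
TPM of the 10 genes in each of the 96 cells (points) with the median over cells (bars), on an axis that is logarithmic above 0.1 TPM and linear below. Prkci, with a lowest cell of 1.41 TPM, forms a single cloud, whereas Llgl1, Llgl2, Numb, Scrib and Pard6b each spread down to cells at 0.

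Each division gave a comparison of the daughters. The sister ratio of a gene in a pair was the higher daughter's normalized count plus 1 over the lower's plus 1, and a ratio of at least 1.5 was taken as unequal. Of the 10 genes, 9 had a median sister ratio of at least 1.5 over the 48 pairs, beside 78.4% of the 14463 genes, a share that leaves the polarity genes close to genes in general. The exception was Numbl, at 0 in both daughters of most pairs. The genes reached 1.5 in a median of 36 pairs, ranging from 19 for Numbl to 45 for Pard6b, and the median gene did so in 33 pairs. In single pairs between 4 and 10 of the 10 genes were unequal, with a median of 8. Pair 24 had the fewest, with ratios of 1.14 for Pard3, 1.16 for Llgl1, 1.02 for Llgl2, 1.03 for Gpsm2, 1.23 for Numa1 and 1.29 for Numb.

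How often a gene reached the ratio differed with its level, though not in one direction. From the lowest decile of mean normalized count to the third, which holds Numbl, the median gene was unequal in 27, 21 and 28 pairs, and in the highest decile in 23. It was unequal in 39 pairs in the decile of Pard6b and in that of Numb and Scrib, in 35 pairs in the decile of Prkci, Llgl1 and Llgl2, and in 31 pairs in the decile of Pard3, Gpsm2 and Numa1. Among genes of its own decile, Pard6b ranked at percentile 97.7 for the number of unequal pairs, Llgl1 at 93.4 and Gpsm2 at 82.4. The other 7 genes ranked between percentile 11.6 and 68.2. Spike-ins, added to all cells alike, also differed between sisters. The 4 ERCC transcripts with a median TPM in the range of the 8 higher genes, 10.8 to 34.1, reached 1.5 in 32 to 39 pairs. Their mean normalized counts, from 343 to 816, were below the range of those 8 genes, 1045 to 3695. Within that range of counts, 7 ERCC transcripts reached 1.5 in 10 to 40 pairs, with a median of 29. Those of the 7 that were counted in every cell also set the size factors. The part of such technical spread in the sister ratios of the 10 genes was not tested.

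**Figure D2:**
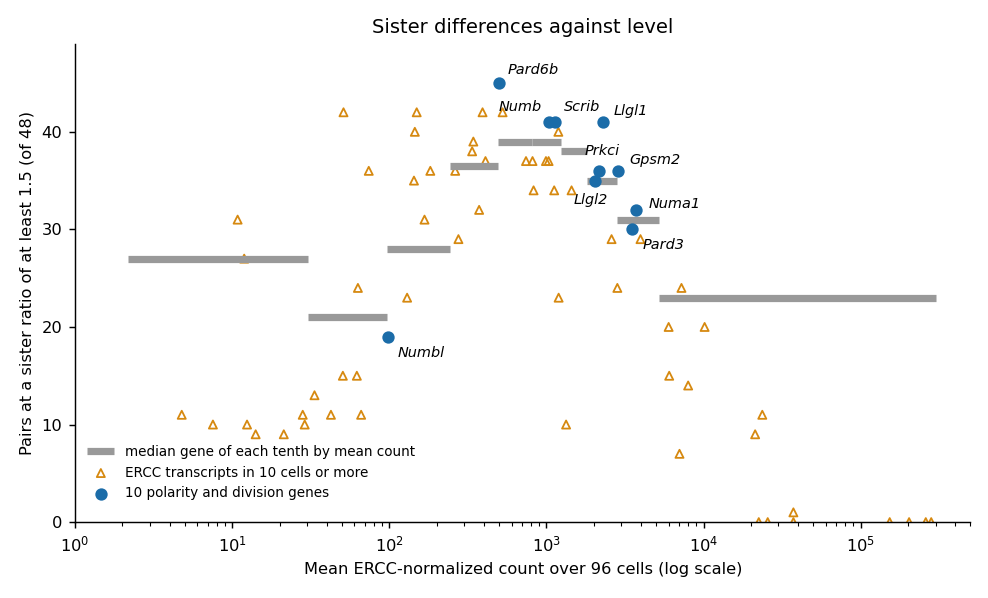
Pairs at a sister ratio of at least 1.5 (of 48) against mean ERCC-normalized count on a log axis, for the 10 genes (filled circles), ERCC transcripts counted in 10 cells or more (open triangles) and the median gene of each decile by mean count (grey bars). Pard6b (45 pairs) and Llgl1 (41 pairs) lie above the bars of their deciles at 39 and 35, and Numbl (19 pairs) lies below its bar at 28.

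Numb and Numbl are the mammalian homologues of the fly fate determinant Numb, an endocytic adaptor that lowers Notch signalling in the daughter that inherits it. Numb (chr12:83794034-83921934, minus strand, GRCm38) was read in 89 of 96 cells, with counts of 0 in the lowest cell, 733.5 at the median and 4522 in the highest. Its median sister ratio was 3.50, and 41 pairs were unequal (85.4%, exact 95% interval 72.2% to 93.9%). In pair 2 the counts were 0 in daughter 1 and 1387 in daughter 2, the largest ratio of this gene when 1 is added to each normalized count. Both daughters had at least 10 counts in 38 pairs, and 31 of these were still unequal, with a median ratio of 2.51 over the 38 pairs. Daughter 1 held more Numb in 31 pairs and daughter 2 in 17, but which daughter was numbered 1 carries no stated meaning.

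Numbl (chr7:27258433-27282144, plus strand) was read in 23 cells and reached 10 counts in 18, with a highest count of 1491. Both daughters were read in 4 pairs, a single daughter in 15 and neither in 29. Numb exceeded Numbl in TPM in 86 cells and Numbl exceeded Numb in 3. Of the 15 partners of Numb and members of the Notch pathway listed, all passed the filter and 14 had a median ratio of at least 1.5, beside 78.4% of the 14463 genes. Jag2, a Notch ligand, was the most abundant of them with 87.5 TPM and the one exception with a ratio of 1.44, while the ligand Dll1 had the largest median ratio, 18.2, at 5.68 TPM. Notch1, the receptor, was read in all 96 cells at a median of 17.2 TPM.

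The Par complex was represented by Pard3, its scaffold, Pard6b, one of the adaptors that couple it to Cdc42, and Prkci, the gene of the kinase aPKC iota. Pard3 (chr8:127063893-127612286, plus strand) had the fewest unequal pairs after Numbl, with 30 of 48 (62.5%) and a median ratio of 1.74. Its counts ran from 8 over a median of 3066 to 11380, and both daughters held 1000 counts or more in 36 pairs. Its largest ratio was in pair 5, with 4165 counts in daughter 1 and 8 in daughter 2, and 5 pairs were at a ratio of 10 or more, among them pair 23 with 3055 and 31 counts. Prkci (chr3:30995747-31052959, plus strand) never fell under 166 counts, with a median of 1767.5 and a maximum of 6751. Its largest ratio was 6.99, in pair 10 with 703 and 5716 counts, and it was the one gene of the 10 without a cell under 10 counts. Even so, 36 of its pairs (exact 95% interval 60.4% to 86.4%) were at 1.5 or above.

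Pard6b (chr2:168081004-168101203, plus strand) showed the opposite picture. It was read in 74 cells but reached 10 counts in only 52, with a median of 47 counts and a maximum of 2779. A single daughter was read in 18 pairs, both in 28 and neither in 2. In 11 pairs one daughter had under 10 counts and the other 1000 or more, the most of the 10 genes, as in pair 25 with 0 and 2779 counts. Over the 14463 genes 5.26% of all combinations of gene and pair were split in this way. Its 45 unequal pairs also include pairs in which both daughters held few reads, since neither reached 10 counts in 12 pairs, although all 16 pairs in which both did were unequal with a median ratio of 5.67.

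Pard6b was not the main PAR6 transcript of these HBCs. Pard6g had a median of 46.1 TPM, was read in all 96 cells and exceeded Pard6b in 90 of them, and Pard6a had a median of 0.141 TPM. In the same way Prkci exceeded Prkcz, the gene of the other atypical kinase, in 78 cells (16.5 against 1.39 TPM), and Pard3 exceeded Pard3b in 95 cells, the latter at a median of 0. Of the 12 other genes of the Par complex and its regulators, all passed the filter and 9 had a median ratio of at least 1.5, beside 78.4% of the 14463 genes. Cdc42, the GTPase that activates the complex, was the most abundant with 415 TPM and the most even, with a median ratio of 1.20 and 12 unequal pairs, while the kinase gene Mark1 had the largest ratio, 24.8, at 0.0413 TPM. The 3 genes Pard3, Pard6b and Prkci did not vary together over the 96 cells, with Spearman correlations of normalized counts of 0.03 between Pard3 and Prkci, -0.11 between Pard3 and Pard6b and 0.19 between Pard6b and Prkci. With counts scaled by library total these were -0.10, -0.26 and 0.10.

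Llgl1, Llgl2 and Scrib encode basolateral proteins, the first pair being substrates of aPKC that leave the cortex once phosphorylated. Llgl1 (chr11:60699723-60714186, plus strand) was read in 92 cells, with counts of 0, 1900.5 and 9050 in the lowest, median and highest cell. It was unequal in 41 pairs with a median ratio of 3.75, and in pair 7 daughter 1 had 5109 counts and daughter 2 had 0. Its last bases, from 60714123 to 60714186, are shared with Flii on the opposite strand, a gene with a higher mean normalized count of 5492. The library kit does not mark strand, so reads in that stretch cannot be told apart.

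Llgl2 (chr11:115824049-115855780, plus strand) was absent from more cells, with a count of 0 in 12 and 10 or more in 77, and its median and highest counts were 1472.5 and 8771. In 8 pairs one daughter had under 10 counts and the other 1000 or more. Pair 22 was one of them, with 4333 counts in daughter 1 and 0 in daughter 2. Both daughters reached 10 counts in 32 pairs, of which 20 were unequal, and the median ratio over these 32 pairs was 2.09. Llgl1 and Llgl2 were close in level, Llgl1 being higher in 41 cells and Llgl2 in 55, and 68 cells held 10 or more counts of both. Their Spearman correlation over the 96 cells was 0.15, and 0.09 after scaling by library total.

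Scrib (chr15:76047158-76069784, minus strand), the scaffold of the module, was read in 89 cells, with a median of 800.5 counts and a maximum of 4153. It was unequal in 41 pairs with a median ratio of 3.22, and pair 38 held 2102 counts in daughter 1 and 0 in daughter 2. Of the 7 other genes of the module, 6 passed the filter and all 6 had a median ratio of at least 1.5, beside 78.4% of the 14463 genes. The scaffold gene Dlg1 was the most abundant of these with 20.7 TPM and 34 unequal pairs, and Dlg3 had the largest ratio, 26.7, at 2.23 TPM.

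Gpsm2 and Numa1 make up the cortical machinery that orients the spindle. Gpsm2 (chr3:108678638-108722309, minus strand) was read in 95 cells, with counts of 0, 2343 and 11066 in the lowest, median and highest cell. It was unequal in 36 pairs with a median ratio of 2.45, and in pair 40 the counts were 5 and 5137. Its 3 prime end overlaps Clcc1 on the other strand, whose mean normalized count was 1430 against 2858 for Gpsm2. Numa1 (chr7:101934111-102014964, plus strand) was never at 0, with counts from 5 over 2647 to 13917. Its daughters were less often unequal, in 32 pairs with a median ratio of 2.28, and 35 pairs had 1000 counts or more in both. In pair 7, however, the counts were 8 and 2087.

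The partner of this pair that links it to PAR3, Inscuteable, was scarce: Insc was read in 6 of 96 cells and did not pass the filter. Gpsm1, the paralogue of Gpsm2, had a median of 3.73 TPM and was lower than Gpsm2 in 75 cells. The other 15 of 16 listed genes of spindle orientation passed the filter, and all 15 had a median ratio of at least 1.5, beside 78.4% of the 14463 genes. Gnai2, a G protein subunit that anchors LGN to the membrane, was the most abundant with 130 TPM and a ratio of 1.56, and Sapcd2, a regulator of LGN, had the largest ratio, 10.7, at 3.92 TPM.

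**Figure D3:**
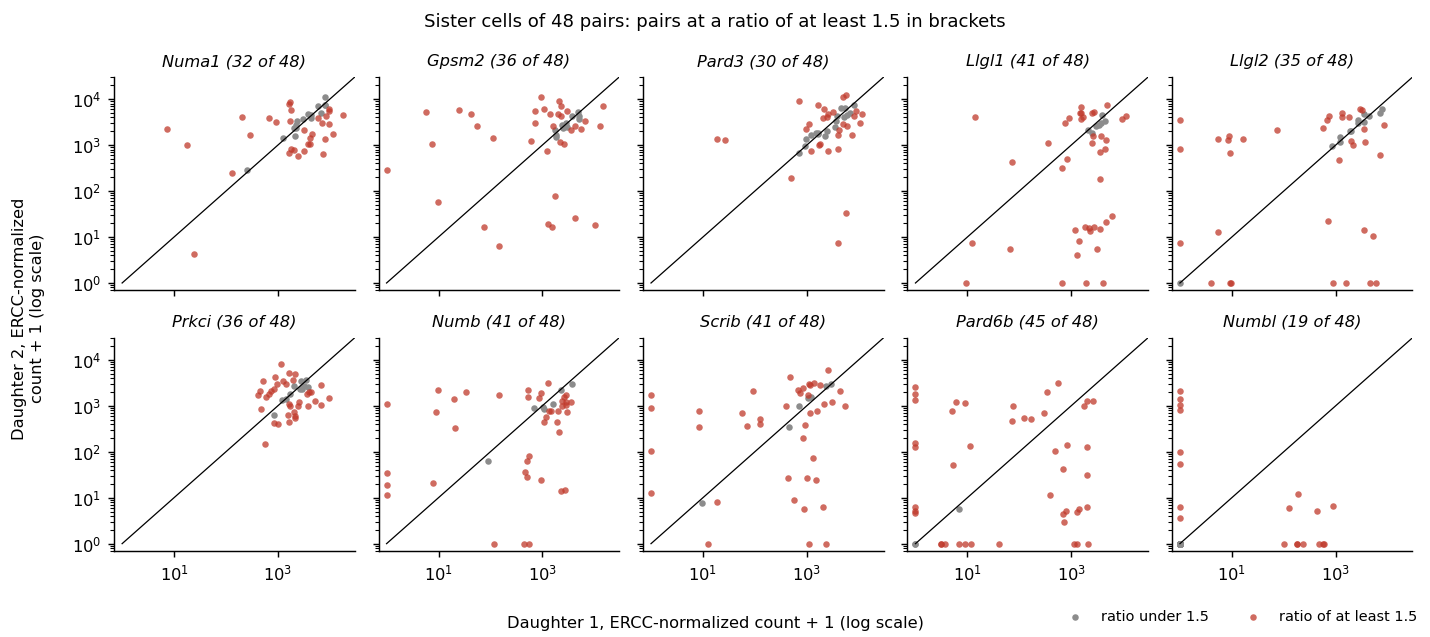
ERCC-normalized count plus 1 in daughter 1 against daughter 2 for each of the 48 pairs and 10 genes, on log axes, with the line of equality and pairs at a ratio of at least 1.5 in red. Points along the axes are pairs in which a single daughter was read, 18 pairs for Pard6b, 15 for Numbl and none for Numa1, Pard3 or Prkci.

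Pairs split in this way, with under 10 counts in one daughter and 1000 or more in the other, made up 39 of the 480 combinations of gene and pair, or 8.12%, beside 5.26% over the 14463 genes. Pard6b and Llgl2 held 11 and 8 of them, whereas Prkci had none, Pard3 and Numa1 had 1 each and Gpsm2 had 2. Genes of like level held on average 6.14 such pairs a gene in the decile of Pard6b. The average was 5.37 in that of Numb and Scrib, which had 3 and 4. It was 1.77 in that of Prkci, Llgl1 and Llgl2, where Llgl1 had 5, and 2.46 in that of Numbl, which had 4. In the decile of Pard3, Gpsm2 and Numa1 it was 0.45, so their few split pairs were still above the average of that decile. At least 1 of the 39 was found in 26 of the 48 pairs. Pairs 2 and 7 held 4 each. In pair 2, Numb, Gpsm2 and Llgl2 were low in daughter 1 while Llgl1 was low in daughter 2. In pair 7, Numa1 and Scrib were low in daughter 1 while Pard6b and Llgl1 were low in daughter 2, so these 4 genes split evenly between the daughters there. Over all pairs the larger number of the 10 genes on one side ran from 4 to 9 with a median of 6.

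The daughter with more RNA held more of some genes. RNA content was taken as gene counts per size factor, and its ratio between sisters ran from 1.01 to 2.19. The normalized counts are divided by the same size factor, so an error in it moves both in the same direction. Pard3 and Numa1 were higher in the daughter with more RNA in 32 pairs and lower in 16, and Prkci in 31 against 17. Numb was higher there in 21 pairs and lower in 27. The median gene was higher in 25 pairs and lower in 19.

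A second measure asked how alike sisters were beside cells of other pairs. The intraclass correlation, the share of the variance in log2 normalized count that lies between pairs, is near 0 where sisters are no more alike than other cells and 1 where they are equal. Over the 10 genes its median was 0.20, against 0.16 for the 14463 genes, and 6 of the 10 lay above the median gene. Lists of cell cycle genes were much higher, at 0.47 for 14 genes of DNA replication and 0.60 for 14 genes of G2 and mitosis, as were the 10 filtered genes of squamous differentiation at 0.53.

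Numa1 was the gene of the 10 in which sisters were most alike, with a share of 0.50 (95% interval 0.25 to 0.68) at percentile 92.9 of all genes and 91.1 of genes of like level. It was lowered to 0.32 without pair 13, whose daughters both held very few Numa1 reads, 30 and 5. Llgl2 followed with 0.31 (0.03 to 0.54), which became 0.12 without the 8 cells of set 9, one of the 12 sets under whose names the data were deposited. Numb had 0.27 (-0.01 to 0.51), Scrib 0.22, Pard3 0.21, Gpsm2 0.18 and Prkci 0.14. Llgl1 had 0.10, Pard6b 0.08 and Numbl -0.07, with intervals from below 0 to above it for all 8 genes other than Numa1 and Llgl2. These intervals take the pairs as independent.

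**Figure D4:**
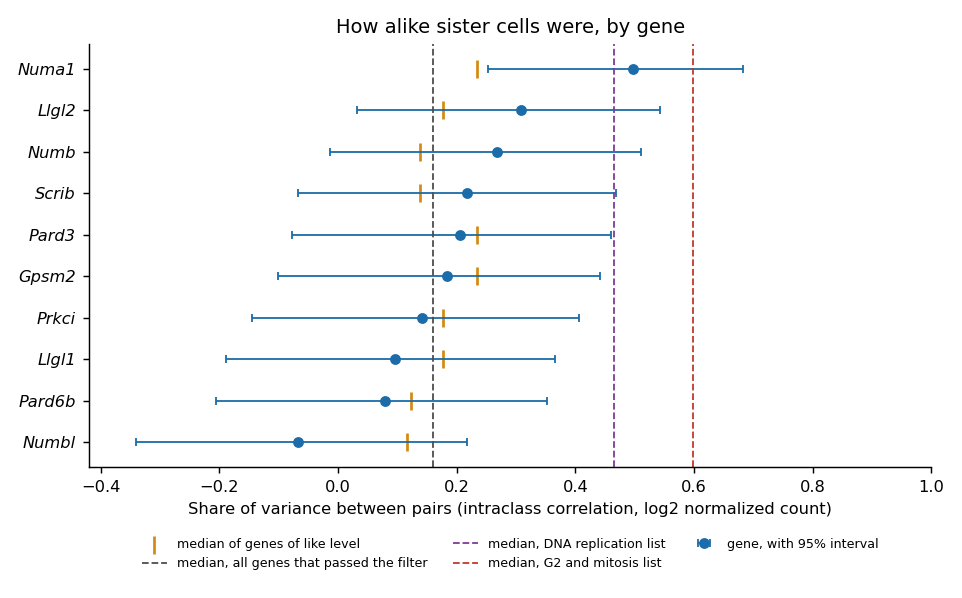
Share of variance between pairs for each of the 10 genes (points, with 95% intervals from the F distribution over 48 pairs), with the median of the genes in the same decile by mean count (short orange bars) and the medians of all genes and of the cell cycle lists (dashed lines). Numa1 at 0.50 lies between the lines for DNA replication at 0.47 and for G2 and mitosis at 0.60, and the other 9 points lie below both.

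The 10 genes varied largely apart from each other over cells. Their 45 Spearman correlations with each other over the 96 cells, which share size factors, had a median of 0.13 and ran from -0.11 to 0.44, and after scaling by library total from -0.26 to 0.33 with a median of 0.04. The differences between sisters in the 48 pairs gave a median of 0.05. Gpsm2 and Scrib were the most alike, with 0.44 over cells, 0.33 by library total and 0.30 within pairs. Gpsm2 and Numa1, which act in one complex, had 0.34 over cells and 0.18 by library total, but 0.05 within pairs.

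Of the 10 genes, Numa1 and Gpsm2 went most closely with genes of the cell cycle. The summed level of the 14 genes of G2 and mitosis, which include Mki67, Top2a, Cdk1 and Cdc20, had a Spearman correlation over the 96 cells of 0.50 with Numa1 and 0.37 with Gpsm2, by library total. Among all genes these lay at percentiles 98.8 and 97.5, and the median gene had 0.03. Scrib had 0.22, Pard6b 0.14, and Numb, Numbl, Pard3, Llgl1 and Llgl2 between -0.14 and 0.04. Prkci had -0.29, at percentile 0.685, although with spike-in scaling this was -0.06 against 0.16 for the median gene. With that scaling Numa1 had 0.63 and Gpsm2 0.49. Sisters were alike in the G2 and mitosis genes, with a median share of variance between pairs of 0.60, so the 96 cells are not independent points. With values centred on the 12 sets the library-scaled correlations were 0.38 for Numa1, 0.34 for Gpsm2 and -0.27 for Prkci.

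**Figure D5:**
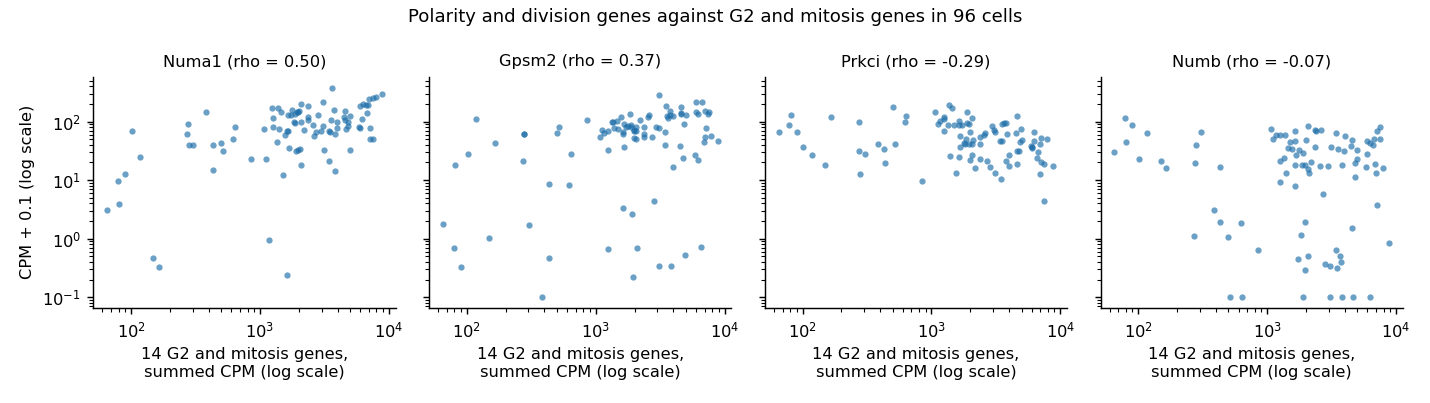
Counts scaled by library total (CPM) plus 0.1 of Numa1, Gpsm2, Prkci and Numb against the summed CPM of 14 G2 and mitosis genes in the 96 cells, on log axes, with Spearman's rho by library total. Cells low in G2 and mitosis genes tend to be low in Numa1 (rho = 0.50), whereas rho was -0.29 for Prkci and -0.07 for Numb.

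Between sisters the relation with the G2 and mitosis genes was looser. By library total, the difference between daughters in these genes had a correlation over the 48 pairs of 0.27 with Numa1 and 0.10 with Gpsm2. With spike-in scaling these were 0.35 and 0.23. For the genes of DNA replication the values between sisters by library total were 0.37 for Numa1 and 0.42 for Gpsm2. Over the 96 cells they were 0.38 and 0.21, so this relation was not looser between sisters. Of all genes, the 3 most like Numa1 over cells by library total were Top2a (0.55), Cdk1 (0.53) and Smc4 (0.53), and the 3 most like Gpsm2 were Ttk (0.46), Aurkb (0.44) and Cdca3 (0.42). Top2a and Smc4 act on mitotic chromosomes, Cdk1, Ttk and Aurkb are kinases of mitosis, and Cdca3 promotes entry into it. The nearest to Llgl2 were S100a11 (0.48), Sat1 (0.46) and Plscr3 (0.44), to Scrib Wnt4 (0.48), Vwa1 (0.43) and Naa40 (0.42), and to Numb Elmo3 (0.46), Gm11185 (0.41) and Mapkap1 (0.38). The single nearest gene was Cep112 for Pard3 (0.43), Gm12696 for Prkci (0.40), Ubash3b for Pard6b (0.40), Rapgef3 for Llgl1 (0.39) and Chmp1b for Numbl (0.40). All these nearest genes were picked as the largest correlations over the 14463 genes. What unrelated genes would reach when picked so was not tested.

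Since Gpsm2 and Numa1 varied with mitotic genes, their promoters were read for the 2 elements typical of such genes, the cell cycle genes homology region (CHR, TTTGAA) and the CCAAT box (CCAAT), on both strands. RefSeq promoters of GRCm38.p6 cover 250 bases before to 50 after a start and were given for 8 of the 10 genes, with 11 starts in all. Llgl2 and Scrib were not among them. The windows below run from 80 bases before the start to 10 after it, 5′ to 3′ on the strand of the gene, with CHR and CCAAT in capitals on either strand (TTCAAA and ATTGG on the other). Cdc20, Cdk1, Kif11 and Ube2c are shown as genes of the G2 and mitosis list that hold both elements. Others of that list do not: Birc5 and Nusap1 had neither, and Ccnb1 and Cenpe had no CHR.
Gpsm2, chr3:108722290-108722379, minus strand: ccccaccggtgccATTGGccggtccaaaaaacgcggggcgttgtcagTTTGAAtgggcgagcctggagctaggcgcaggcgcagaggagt
Cdc20, chr4:118437334-118437423, minus strand: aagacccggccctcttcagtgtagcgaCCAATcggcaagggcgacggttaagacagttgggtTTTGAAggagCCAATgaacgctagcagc
Cdk1, chr10:69352903-69352992, minus strand: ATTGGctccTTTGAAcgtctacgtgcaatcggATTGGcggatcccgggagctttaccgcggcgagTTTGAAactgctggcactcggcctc
Kif11, chr19:37376302-37376391, plus strand: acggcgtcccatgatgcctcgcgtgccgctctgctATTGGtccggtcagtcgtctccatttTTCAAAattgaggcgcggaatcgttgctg
Ube2c, chr2:164769849-164769938, plus strand: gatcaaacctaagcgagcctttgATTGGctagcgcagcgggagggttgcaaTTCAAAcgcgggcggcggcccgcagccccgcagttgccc
Numa1, chr7:101969763-101969852, plus strand: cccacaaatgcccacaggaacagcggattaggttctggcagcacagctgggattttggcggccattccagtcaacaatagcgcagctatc

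Of the 8 genes with a promoter, only Gpsm2 held both elements in one, a CCAAT box starting 67 bases and a CHR 33 bases before the start, with 29 bases between them. Kif11 had 21 and Ube2c 23 bases between theirs. Both elements were found in 9 of 13 promoters of the G2 and mitosis list and in 6.95% of all 32851 promoters. The arrangement itself, a CCAAT box 20 to 45 bases upstream of a CHR within 120 bases before the start, was a measure chosen after the sequences were seen. It was found in 95 promoters, or 0.289%, among them Gpsm2 and 6 of the 13 promoters of the G2 and mitosis list (Cdc20, Cdk1, Kif11, Prc1, Top2a and Ube2c). Numa1 had neither element in its RefSeq promoter, which starts inside the span given for the gene in the files, and a second start of Numb had a CHR alone. Matching letters do not show that a factor binds, and no match says only that these letters are not in this window.

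Other genes of polarity lay close to the 10. Of 70 other genes in 6 lists, 62 passed the filter. Of these, 58 (93.5%) had a median sister ratio of at least 1.5, beside 78.4% of the 14463 genes. They had a median of 36 unequal pairs, beside 33 for the median gene. Their median share of variance between pairs was 0.19, beside 0.16. The 8 that did not pass were Insc, Crb1, Crb2, Lin7a, Lin7b, Dlg2, Prickle1 and Prickle2. Crb2 was not read in any of the 96 cells, a count of 0 that would allow a share of up to 3.12% if the cells were independent draws, which sisters are not. Of the 8 Crumbs complex genes 4 passed and all 4 were at 1.5 or above, from Crb3, the apical membrane protein of epithelia, with 86.5 TPM and a ratio of 2.00, to the scaffold gene Mpp5 with a ratio of 3.74. Of the 12 genes of planar cell polarity 10 passed and all 10 were at 1.5 or above, with Ptk7 the most abundant at 44.4 TPM and the receptor gene Fzd3 at the largest ratio, 35.5.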

How the data were processed

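The transcriptomes of 96 paired daughter HBCs were read by G&T-seq, which captures RNA on oligo-dT beads, amplifies it by PCR without molecular identifiers and marks no strand. The authors trimmed reads with Trimmomatic 0.39, aligned them with STAR 2.7.11a to GRCm38 with Ensembl annotation and ERCC sequences, and used StringTie 2.2.1. The deposited counts per gene are whole numbers without normalization, and the deposited TPM values per cell include the ERCC transcripts in their total, so TPM falls as the ERCC share rises.

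Each cell's size factor was a median of ratios taken over those ERCC transcripts with counts in every cell, 22 of 92. Ratios and intraclass correlations used log2(normalized count + 1). Intervals of shares are Clopper-Pearson 95% intervals and cover counting error alone. The scripts ran in Python 3.11.15 with numpy 2.4.6, scipy 1.17.1, pandas 2.3.3 and matplotlib 3.10.9, and were tested on simulated data. Alternatives were other scalings (ERCC total, library total, median of ratios over genes), TPM with a pseudocount of 0.1, a pseudocount of 10, no filter, a ratio of 2, and leaving out pairs or each of 12 sets of 8 cells. The sets come from the names of the deposited data, and whether they were handled together is not stated. The members and gene lists were chosen with earlier results of these data known. Named were the 10 genes, the 3 genes nearest to each by Spearman correlation, and in each polarity list the genes of highest median TPM and of largest median ratio. Notch1, the other genes compared within families or shown with promoters, and those that failed the filter, were named after values were seen.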

Additional observations from a re-analysis of the deposited data

How the results depend on the processing

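The counts and medians over the 10 genes moved little with the processing. The 9 genes with a median sister ratio of at least 1.5 were 9 under each other scaling, TPM, a pseudocount of 10 and without the 3 pairs whose size factors differed 1.5-fold or more, and 8 at a ratio of 2. Of all filtered genes, 74.4% were at 1.5 or above with TPM and 69.4% with a pseudocount of 10. Under the other scalings and without the 3 pairs this was 76.9% to 78.4%. At a ratio of 2 the share of all filtered genes was 59.8%. The median share of variance between pairs stayed between 0.17 and 0.22 under all alternatives. Other than when sets were left out, 6 to 9 genes lay above the median gene. The 9 were without a filter, where the median gene had a share of 0. Leaving out each of the 12 sets gave 3 to 4 genes read in every cell, 9 at a ratio of 1.5, a median of 32.5 to 34 of 44 pairs, 5 to 8 above the median gene, a median share of 0.17 to 0.22 and 57 to 58 of the other polarity genes. With a minimum of 10 counts, 1 gene in place of 3 was read in every cell. At a ratio of 2, Numb was unequal in 34 pairs, Pard3 in 19 and Gpsm2 in 28, fewer than their intervals at 1.5 allow, because a higher ratio counts fewer pairs. Values centred on the set of 8 cells, an alternative added after seeing the data, gave 0.37 for Numa1 and 0.23 for Llgl2, and a median correlation among the 10 genes of 0.07. Without single sets, the share fell to 0.32 for Numa1 (set 4), 0.12 for Llgl2 (set 9), 0.05 for Prkci (set 1), 0.03 for Llgl1 (set 8) and 0.0016 for Pard6b (set 10), and without single pairs to 0.05 for Prkci (pair 3) and 0.0039 for Llgl1 (pair 29). The cause was not tested. No paired analysis was possible because there is 1 group, and sister pairs are themselves the unit described. Without molecular identifiers, counts under 10 in a daughter cannot be told from stray reads.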

Other observations

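Mki67, a proliferation marker and one of the G2 and mitosis genes, had Spearman correlations over the 96 cells of 0.47 with Numa1 and 0.35 with Gpsm2 by library total, and of 0.60 and 0.47 by spike-in scaling. For the differences between sisters in Mki67 the spike-in scaled values were 0.34 for Numa1 but -0.03 for Gpsm2, beside 0.06 for the median gene. Between sisters, the difference in Trp63, the master regulator of basal cells, had a correlation over 48 pairs of 0.32 with Llgl2 by library total, at percentile 98.5 of all genes, and 0.30 by spike-in scaling, and between -0.18 and 0.17 with the other 9 genes by library total. Over the 96 cells Llgl2 had 0.01 with Trp63. For the summed H3.3 genes, H3f3a and H3f3b, the sister difference had a correlation of 0.39 with Numa1 by spike-in scaling and 0.21 by library total. With Scrib it was 0.22 by spike-in scaling and 0.24 by library total. With Pard3 the sign changed with the scaling, from 0.07 by spike-in scaling to -0.22 by library total. The median gene had 0.10 with this sum by spike-in scaling. The sum did not stand for each H3.3 gene alone. By spike-in scaling the sister difference in H3f3a had 0.11 with Numa1 and -0.04 with Scrib, whereas H3f3b had 0.30 and 0.31. By library total H3f3a had -0.004 and -0.12, and H3f3b 0.19 and 0.26.

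The summed level of 12 squamous differentiation genes had correlations over cells of 0.22 with Llgl2 and -0.13 with Numa1 by library total, the ends of the range over the 10 genes. With spike-in scaling these were 0.29 and 0.02. Scrib had 0.30 with 10 genes of basal identity and 0.43 by spike-in scaling. By library total, Llgl2 had -0.26 with the genes of DNA replication over cells and 0.11 within pairs. With spike-in scaling these were -0.06 and 0.04. Centred on the 12 sets, the library-scaled value over cells was -0.07. Each of these correlations shares library size and set among its points.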
